A study of Mus musculus with 6 samples.

Results

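The genes that carry the insulin signal from the cell surface to glucose uptake were examined in the gastrocnemius (GAS) muscles of Kvβ2 KO and WT mice. The set holds 10 of the 37979 genes in the deposited table, picked by their symbols: the receptors *Insr* and *Igf1r*, the adaptors *Irs1*, *Irs2* and *Grb10*, the PI3K subunits *Pik3ca* and *Pik3r1*, the kinases *Akt1* and *Akt2*, and the AKT substrate *Tbc1d4*. GAS muscles of 3 untreated male mice of each genotype, 20 weeks of age, were sequenced with 1 library per mouse. The KO mice were Kvβ2-/- and the WT mice wild type, both obtained by breeding Kvβ2+/- null mice with each other, and the null allele is not restricted to muscle. Within each genotype the mice are numbered 1, 7 and 8. The unit throughout is FPKM, fragments scaled by transcript length and by the size of the library, so levels can be compared between genes.

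Insulin binds a receptor tyrosine kinase, which phosphorylates the IRS adaptor proteins. These recruit phosphoinositide 3-kinase (PI3K), whose lipid product brings AKT to the membrane to be activated. In skeletal muscle, AKT2 phosphorylates TBC1D4 and thereby lets vesicles carrying the glucose transporter GLUT4 reach the cell surface, while AKT also restrains FOXO transcription factors and promotes protein synthesis. The receptor for insulin-like growth factor 1, encoded by *Igf1r*, feeds into the same cascade and is known for its part in muscle growth.

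Depth, estimated from the spacing of low FPKM values, was 14980000 to 19270000 fragments in the KO libraries and 20500000 to 21600000 in the WT libraries. The targeted gene *Kcnab2* measured 0.10 to 0.233 FPKM in WT muscle and 0.0151 FPKM in KO mouse 7, and KO mice 1 and 8 are listed at 0. Of 12 skeletal muscle markers, 10 passed the filter of the test, and *Myh4* and *Tnnt3* were listed at 0 in all 6 libraries. Others of the list, named after their values were seen, were high, with *Tnni2* at 7742 to 11647 FPKM and *Actn3* at 1721 to 3179 FPKM. The zeros are therefore not read as absence of these transcripts, and their cause was not tested. The libraries differed by the GC content of their genes. Across 12092 genes above 0 in every library, a gene's level relative to the mean of the libraries changed by 0.17 to 0.37 on the log2 scale per 10 percentage points of GC in the KO libraries and by -0.41 to -0.14 in the WT libraries. WT replicate 1 was the lowest of these and KO replicate 7 the highest, and this trend and the genotype cannot be told apart in these libraries. Each log2 fold change below is therefore given as deposited and mostly also after a correction of each library for GC content. In whole muscle, fewer cells of a type and less RNA per cell cannot be told apart.

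All 10 genes passed the filter of a mean of 0.5 FPKM and were tested with limma among 12334 genes, on log2(FPKM + 0.1). Of the 10 genes, 0 were called at an adjusted p under 0.05, where the share of all tested genes was 0.251% higher and 0.073% lower for KO. At an unadjusted p under 0.05, *Irs2* and *Akt1* were higher, against 15.3% of all tested genes, and *Pik3ca* and *Tbc1d4* were lower, against 10.9%. All 3 KO mice exceeded the highest WT mouse for *Irs2*, *Akt1* and *Igf1r*, against 18.3% of all tested genes. All 3 were under the lowest WT mouse for *Tbc1d4*, *Pik3ca* and *Pik3r1*, against 16.2%. In either direction these shares of all tested genes were 26.2% at that p and 34.5% without overlap. The libraries of the genotypes overlapped for *Insr*, *Irs1*, *Grb10* and *Akt2*. The median log2 fold change of the 10 genes was 0.13, and that of all tested genes was 0.010. When limma's array weights were used, *Irs2*, *Akt1* and *Igf1r* were called higher and *Tbc1d4*, *Pik3ca* and *Pik3r1* lower, that is 3 and 3 of the 10 genes, against 15.1% and 10.4% of all tested genes.

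**Figure D1:**
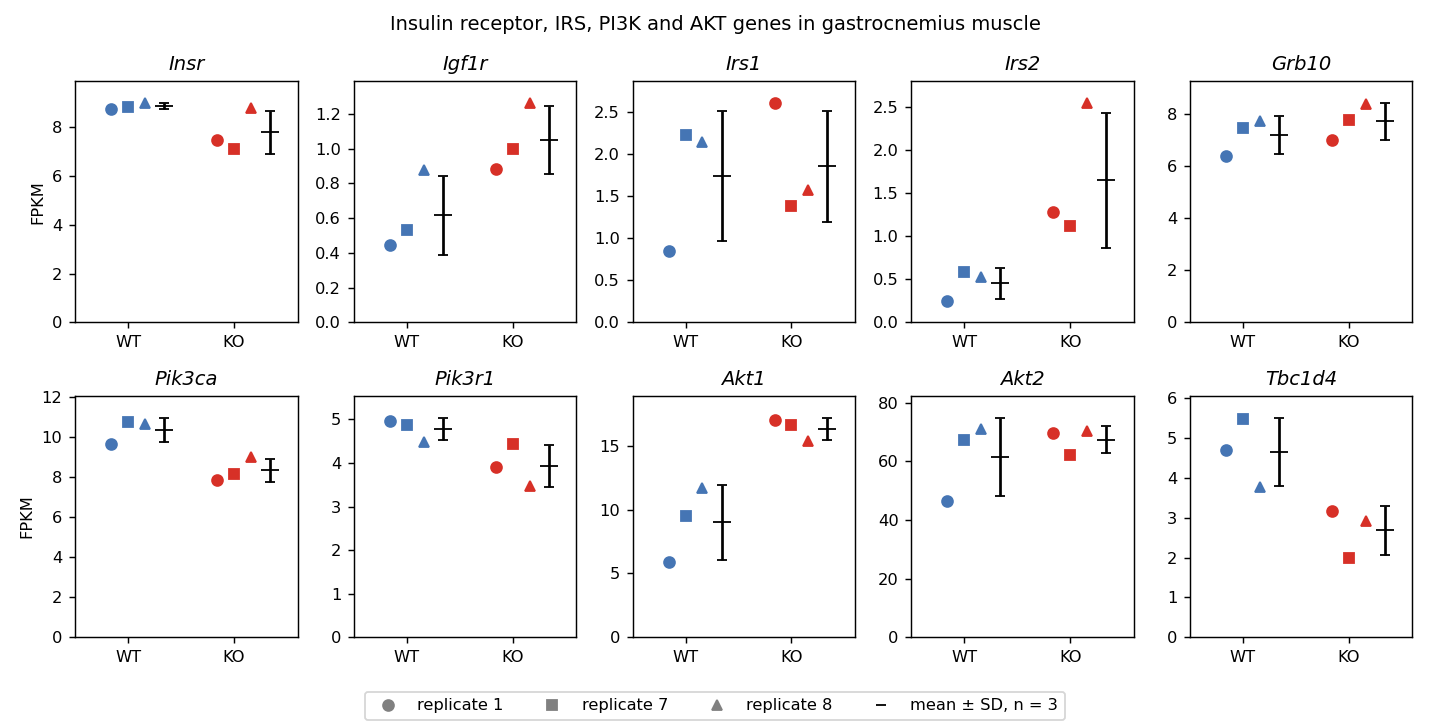
FPKM (vertical axes, each from 0) of the 10 genes in the 3 WT libraries (blue) and the 3 KO libraries (red), with marker shape for the replicate number and the mean ± SD (n = 3) in black. The KO libraries lie above the WT libraries for *Igf1r*, *Irs2* and *Akt1* and below them for *Pik3ca*, *Pik3r1* and *Tbc1d4*.

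*Insr* encodes the insulin receptor and is found on the reverse strand of chromosome 8, 3122061 to 3279617 of GRCm38. WT mice 1, 7 and 8 measured 8.75, 8.84 and 8.99 FPKM, against 7.49, 7.09 and 8.79 FPKM for KO mice 1, 7 and 8. The WT mice were nearly equal, and KO replicate 8 lay within their range, so the genotypes overlapped. The log2 fold change was -0.19 ± 0.12 (SE, limma, adjusted p = 0.343), with a 95% interval of -0.47 to 0.089, and it was -0.018 after correction for GC content.

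*Igf1r* (chromosome 7, plus strand, 67952827 to 68233668) measured 0.445, 0.533 and 0.876 FPKM in WT mice 1, 7 and 8, against 0.881, 1.00 and 1.26 FPKM in KO mice 1, 7 and 8. Its highest WT library and its lowest KO library were almost equal. The means were 0.618 ± 0.228 FPKM for WT against 1.05 ± 0.196 FPKM for KO muscle (SD, n = 3 for each), and the log2 fold change was 0.71 ± 0.31 (SE, limma, adjusted p = 0.197) with a 95% interval of -0.015 to 1.43. The GC content of *Igf1r* (49.2%) is near the median of all tested genes (50.1%), and the corrected log2 fold change of 0.75 stood close to the uncorrected one. With a pseudocount of 1 FPKM it was 0.34.

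WT muscle held 19.7, 16.6 and 10.3 times as much *Insr* as *Igf1r* per length in replicates 1, 7 and 8. KO muscle held 8.51, 7.09 and 6.96 times as much. The log2 ratio of *Insr* to *Igf1r* was thus lower in each KO library than in each WT library, by 0.90 on average (exact permutation test, two-sided, p = 0.1; adjusted over 4 ratios p = 0.133). With 3 mice of each genotype this test cannot go below 0.1. The difference was -0.77 after correction for GC content, again with no overlap, and -0.515 with a pseudocount of 1 FPKM.

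Among the adaptors, *Irs2* is a docking protein for PI3K that is known to be induced when FOXO factors are active. The gene sits on the reverse strand of chromosome 8, 10984681 to 11008458, with 1 annotated transcript of 6323 bases. *Irs2* measured 0.250, 0.591 and 0.528 FPKM in WT mice 1, 7 and 8, against 1.28, 1.12 and 2.55 FPKM in KO mice 1, 7 and 8. Every KO library held more than every WT library, with WT replicate 1 the lowest and KO replicate 8 the highest. The approximate number of fragments behind these values was 32 to 75 in the WT and 118 to 253 in the KO libraries. The mean was 0.456 ± 0.181 FPKM for WT against 1.65 ± 0.783 FPKM for KO muscle (SD, n = 3 for each). The log2 fold change of 1.63 ± 0.40 (SE, limma, adjusted p = 0.0809) was the largest among the 10 genes and exceeded that of 99.3% of all tested genes. The WT mean of *Irs2* is under the filter of 0.5 FPKM, so the gene passed only through its KO level. With a pseudocount of 1 FPKM the log2 fold change was 0.83. It was 1.19 after correction for GC content, still with no overlap (adjusted p = 0.367), 1.32 without WT replicate 1, 1.28 without KO replicate 8 and 0.97 with WT replicate 1 left out and the correction made. An exon of *Irs2* shares 162 bases with a gene on the opposite strand. The study named *Irs2* and *Akt1* as changed on these samples, so their direction is not independent evidence.

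*Irs1*, the other main IRS adaptor of muscle, did not separate WT from KO mice. WT mice 1, 7 and 8 measured 0.846, 2.22 and 2.14 FPKM, against 2.61, 1.39 and 1.57 FPKM for KO mice 1, 7 and 8. WT replicate 1 lay well under the other libraries and KO replicate 1 was the highest. The log2 fold change was 0.15 ± 0.39 (SE, limma, adjusted p = 0.835) with a 95% interval of -0.77 to 1.07, and without WT replicate 1 it was -0.27. *Irs1* (chromosome 1, minus strand, 82233101 to 82291416) has 1 annotated transcript of 9144 bases, and 2822 of these overlap *Gm9747*, a gene on the opposite strand. *Gm9747* was listed at 10.55 to 14.4 FPKM in WT and 7.13 to 10.3 FPKM in KO muscle, more than *Irs1* in each library. The library kit keeps strand, but whether the quantification used it is not given in the sources used here. The *Irs1* values are uncertain to that extent.

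In WT muscle, *Irs2* was at 0.296, 0.266 and 0.247 times the level of *Irs1* in replicates 1, 7 and 8. In KO muscle it was at 0.491, 0.809 and 1.62 times that level. The WT mice were close to each other and the KO mice spread widely, with *Irs2* above *Irs1* only in KO replicate 8. The mean log2 ratio of *Irs2* to *Irs1* was 1.48 higher in KO muscle (exact permutation test, two-sided, p = 0.1; adjusted over 4 ratios p = 0.133). The ratio was 1.06 higher after correction for GC content, where the genotypes overlapped. With a pseudocount of 1 FPKM it was 0.75 higher (exact permutation test, two-sided, p = 0.2), again with overlap.

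*Grb10*, an imprinted adaptor that binds the receptors and restrains their signal, lies on chromosome 11 (minus strand, 11930508 to 12038683). It lay between 6.38 and 7.72 FPKM across WT mice and between 6.998 and 8.41 FPKM across KO mice. The ranges overlapped, with a log2 fold change of 0.10 ± 0.13 (SE, limma, adjusted p = 0.640) and a 95% interval of -0.20 to 0.40.

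Of the PI3K subunits, *Pik3ca* encodes the catalytic subunit p110α and *Pik3r1* the regulatory subunit p85α that binds phosphorylated IRS proteins. *Pik3ca* (chromosome 3, plus strand, 32397671 to 32468486) measured 9.68, 10.8 and 10.6 FPKM in WT mice 1, 7 and 8, against 7.87, 8.15 and 8.999 FPKM in KO mice 1, 7 and 8. *Pik3r1* (chromosome 13, minus strand, 101680563 to 101768217) measured 4.97, 4.88 and 4.49 FPKM in the same WT mice, against 3.90, 4.43 and 3.47 FPKM in the same KO mice. For both genes every KO library lay below every WT library, in *Pik3r1* by a narrow margin. The log2 fold changes were -0.31 for *Pik3ca* (SE 0.11, adjusted p = 0.145) and -0.28 for *Pik3r1* (SE 0.13, adjusted p = 0.224). Their transcripts are the poorest in GC among the 10 genes, at 41.1% and 45.6%. After correction for GC content the log2 fold changes were 0.025 and -0.095, and the genotypes overlapped for both.

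The ratio of *Pik3ca* to *Pik3r1* did not separate the genotypes. There was 1.95 to 2.37 times as much *Pik3ca* in WT and 1.84 to 2.59 times as much in KO muscle. The mean log2 ratio differed by -0.031 (exact permutation test, two-sided, p = 0.9), and this sign changed with the library left out.

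*Akt1* and *Akt2* encode closely related kinases, of which AKT2 is the one most tied to glucose uptake and AKT1 the one most tied to growth. *Akt1* (chromosome 12, minus strand, 112653821 to 112674884) measured 5.86, 9.52 and 11.7 FPKM in WT mice 1, 7 and 8, against 17.0, 16.6 and 15.4 FPKM in KO mice 1, 7 and 8. The KO mice were close to each other and all above the WT mice, which were spread more widely. The mean was 9.02 ± 2.94 FPKM for WT against 16.3 ± 0.864 FPKM for KO muscle (SD, n = 3 for each), and the log2 fold change was 0.90 ± 0.24 (SE, limma, adjusted p = 0.0887). *Akt1* is the richest in GC of the 10 genes (59.3%). After correction for GC content its log2 fold change was 0.32 ± 0.18 (SE, limma, adjusted p = 0.571) and the genotypes overlapped. It was 0.62 without WT replicate 1, and 0.13 with that library left out and the correction made.

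*Akt2* (chromosome 7, plus strand, 27591552 to 27640826) was by far the most abundant of the 10 genes. WT mice 1, 7 and 8 measured 46.3, 67.1 and 71.1 FPKM, against 69.8, 62.0 and 70.4 FPKM for KO mice 1, 7 and 8. Only WT replicate 1 stood below the others, and the genotypes overlapped. The log2 fold change was 0.15 ± 0.17 (SE, limma, adjusted p = 0.593) with a 95% interval of -0.25 to 0.56, was -0.038 without WT replicate 1 and was -0.17 after correction for GC content.

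WT muscle held 7.90, 7.05 and 6.09 times as much *Akt2* as *Akt1* in replicates 1, 7 and 8, and KO muscle held 4.10, 3.73 and 4.58 times as much. The balance thus lay less toward *Akt2* in each KO library than in each WT library. The mean log2 ratio differed by -0.75 (exact permutation test, two-sided, p = 0.1; adjusted over 4 ratios p = 0.133), ran from -0.84 to -0.66 when single mice were left out, and was -0.49 after correction for GC content, again with no overlap.

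**Figure D2:**
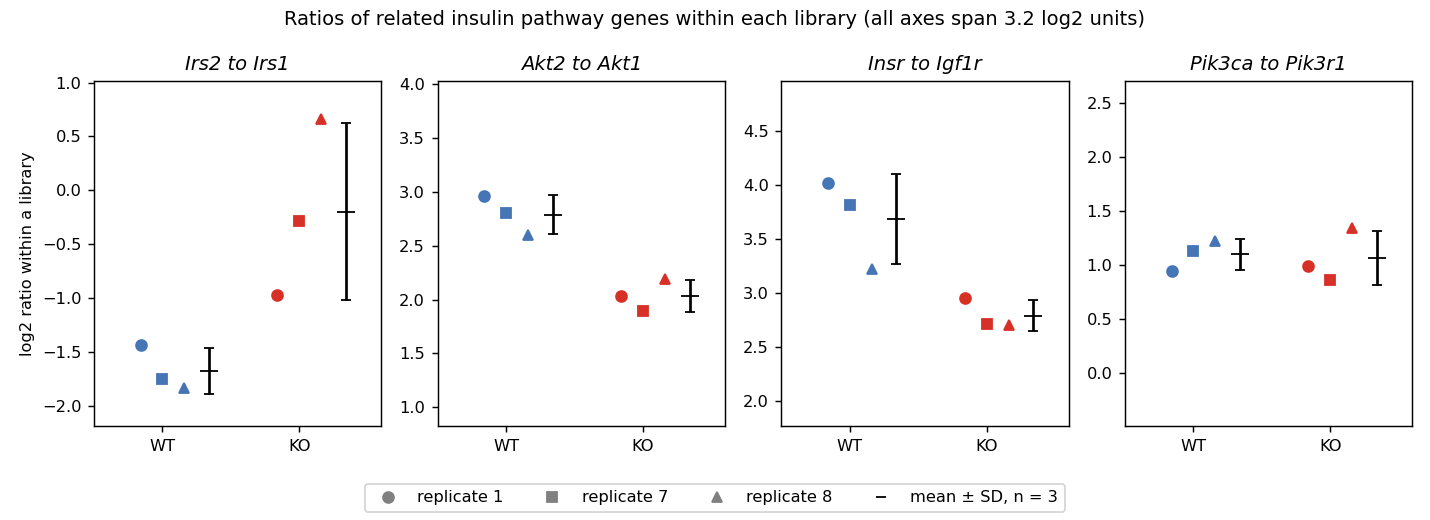
Log2 ratio of FPKM + 0.1 (vertical axes, all spanning 3.2 log2 units) for 4 pairs of related genes in each WT library (blue) and KO library (red), with the mean ± SD (n = 3) in black. The genotypes do not overlap for *Irs2* to *Irs1*, *Akt2* to *Akt1* and *Insr* to *Igf1r*, and they overlap for *Pik3ca* to *Pik3r1*.

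*Tbc1d4* encodes the Rab GTPase-activating protein through which AKT releases GLUT4 vesicles. The gene is on chromosome 14 (minus strand, 101442360 to 101609191). *Tbc1d4* measured 4.70, 5.49 and 3.77 FPKM in WT mice 1, 7 and 8, against 3.17, 1.99 and 2.91 FPKM in KO mice 1, 7 and 8. No KO mouse reached the lowest WT mouse, with KO replicate 7 the lowest. The mean was 4.65 ± 0.857 FPKM for WT against 2.69 ± 0.616 FPKM for KO muscle (SD, n = 3 for each), a ratio of 0.578. The log2 fold change was -0.78 ± 0.21 (SE, limma, adjusted p = 0.0956), lower than that of all but 2.08% of tested genes. The correction for GC content moved it little, to -0.84 (SE 0.20, adjusted p = 0.287), with no overlap. The GC content of the gene (51.3%) is near the median. Leaving out single mice gave -0.92 to -0.58.

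**Figure D3:**
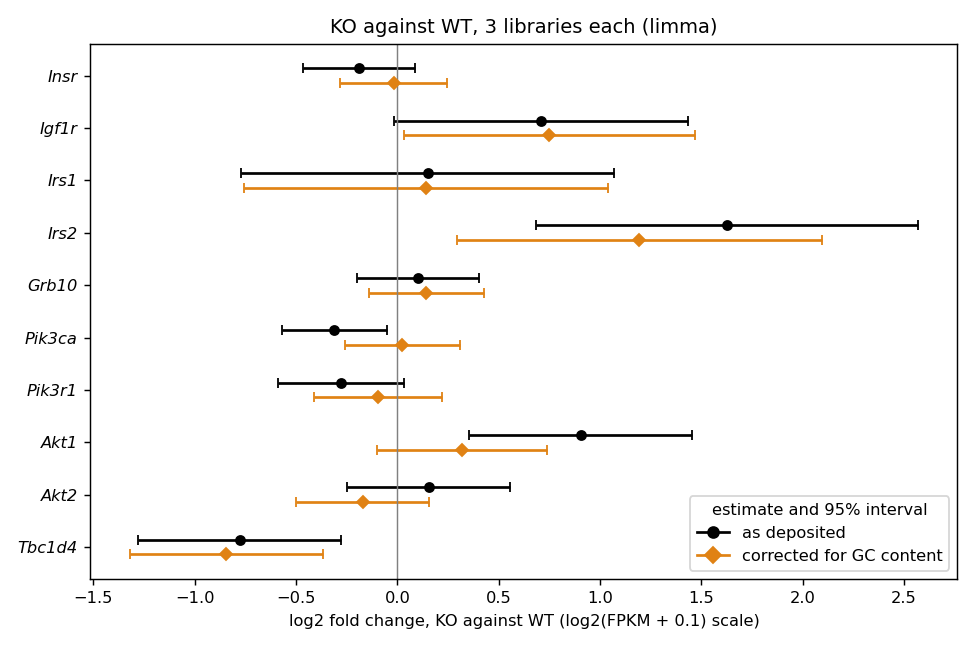
Log2 fold change of KO against WT (horizontal axis, on the log2(FPKM + 0.1) scale) with its 95% interval from limma for each of the 10 genes, as deposited (black circles) and after correction of each library for GC content (orange diamonds). The intervals of *Irs2* and *Tbc1d4* stay off 0 in both, that of *Akt1* reaches 0 after the correction, and those of *Pik3ca* and *Pik3r1* are centred near 0 after it.

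Across the 10 genes the log2 fold change followed GC content (Spearman's rho = 0.68 over 10 genes, which share the same libraries), as it did across all tested genes of known GC content (rho = 0.70 over 11985 genes). Of tested genes under 45% GC, 33.7% were lower and 0.613% higher at an unadjusted p under 0.05. Of those at 55% GC or more, 0.703% were lower and 47.1% higher. *Akt1*, *Irs2* and *Akt2* belong to the latter band, whose median log2 fold change was 0.47, and *Pik3ca* to the former, whose median was -0.30. After the correction the libraries did not overlap for *Igf1r* and *Irs2*, against 8.14% of genes higher in the KO mice, and for *Tbc1d4*, against 9.33% lower. At an unadjusted p under 0.05 these were the same genes, against 5.33% higher and 5.4% lower.

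**Figure D4:**
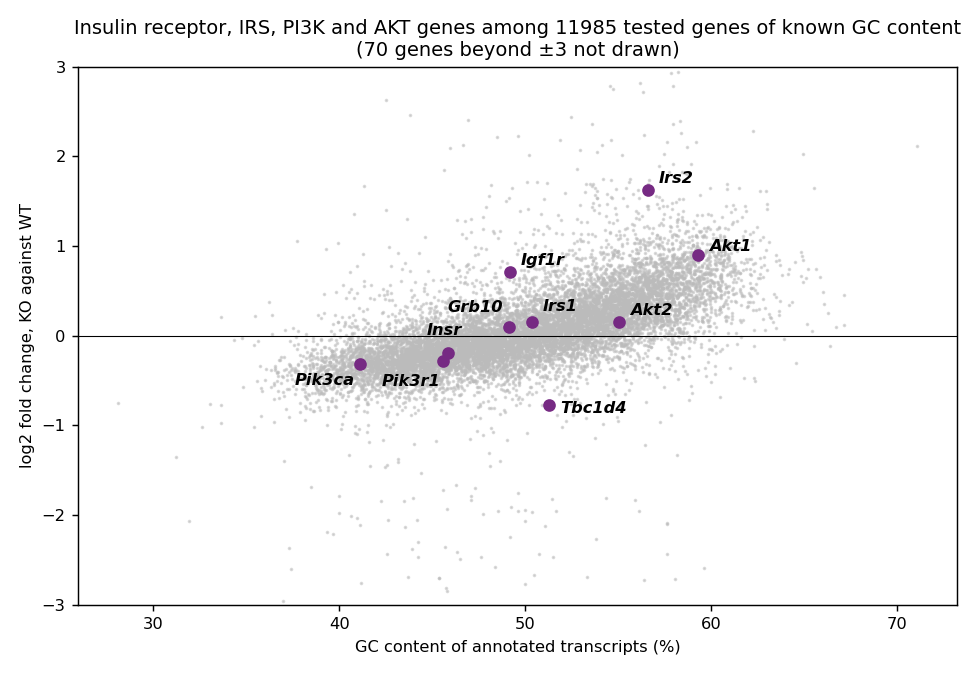
Log2 fold change of KO against WT (vertical axis) by the GC content of a gene's annotated transcripts in percent (horizontal axis) for 11985 tested genes (grey, with 70 genes beyond ±3 not drawn) and the 10 named genes (purple). *Akt1*, *Akt2*, *Pik3ca*, *Pik3r1* and *Insr* lie in the sloping cloud of all genes, *Irs2* and *Igf1r* in its upper part and *Tbc1d4* in its lower part.

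By level per length, the order in WT muscle was *Akt2* (61.5 FPKM on average), *Pik3ca* (10.4), *Akt1* (9.02), *Insr* (8.86), *Grb10* (7.20), *Pik3r1* (4.78), *Tbc1d4* (4.65), *Irs1* (1.74), *Igf1r* (0.618) and *Irs2* (0.456). The WT ranges of *Pik3ca*, *Akt1* and *Insr* overlapped in turn, as did those of *Pik3r1* and *Tbc1d4* and those of *Irs1*, *Igf1r* and *Irs2*. In KO muscle *Akt1* (16.3 FPKM) stood between *Akt2* (67.4) and *Pik3ca* (8.34) without overlap, and *Irs2* (1.65) came before *Igf1r* (1.05), with overlapping ranges. The IRS adaptors and *Igf1r* had the lowest means of the set in both genotypes. Over the 6 libraries, the pairs whose log2 FPKM were most alike were *Igf1r* with *Akt1* (Pearson's r = 0.89), *Igf1r* with *Irs2* (0.88) and *Irs1* with *Akt2* (0.88), a description over libraries that share the difference between the genotypes.

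The sequences before the starts of *Irs2*, *Akt1* and *Tbc1d4* are shown because these genes had the lowest p-values of the set. RefSeq promoter windows on GRCm38.p6 were found for 9 of the 10 genes. Each sequence below is the 250 bases before a RefSeq start, read 5′ to 3′ on the minus strand. Capitals mark the FOXO site GTAAACA, the insulin response sequence CAAAACA, the E-box CACGTG that CLOCK and BMAL1 bind, and the GC box GGGCGG, on either strand.
Irs2, chr8:11008930-11009179: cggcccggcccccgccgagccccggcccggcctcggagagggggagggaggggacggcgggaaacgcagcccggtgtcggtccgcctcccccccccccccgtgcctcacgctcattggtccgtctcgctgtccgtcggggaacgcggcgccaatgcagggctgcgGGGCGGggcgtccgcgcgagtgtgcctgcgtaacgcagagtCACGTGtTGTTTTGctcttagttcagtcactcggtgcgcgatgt
Akt1, upstream start, chr12:112674885-112675134: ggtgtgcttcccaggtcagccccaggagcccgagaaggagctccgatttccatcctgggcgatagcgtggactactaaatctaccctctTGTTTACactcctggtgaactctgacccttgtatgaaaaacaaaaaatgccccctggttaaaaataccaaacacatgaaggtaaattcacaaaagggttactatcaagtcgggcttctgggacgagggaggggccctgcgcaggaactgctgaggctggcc
Akt1, downstream start, chr12:112674277-112674526: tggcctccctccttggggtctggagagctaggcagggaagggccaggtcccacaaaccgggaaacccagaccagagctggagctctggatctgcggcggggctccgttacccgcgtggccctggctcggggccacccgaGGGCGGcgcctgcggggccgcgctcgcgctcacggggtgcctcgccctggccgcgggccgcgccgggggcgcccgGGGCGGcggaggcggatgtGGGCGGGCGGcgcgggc
Tbc1d4, chr14:101609192-101609441: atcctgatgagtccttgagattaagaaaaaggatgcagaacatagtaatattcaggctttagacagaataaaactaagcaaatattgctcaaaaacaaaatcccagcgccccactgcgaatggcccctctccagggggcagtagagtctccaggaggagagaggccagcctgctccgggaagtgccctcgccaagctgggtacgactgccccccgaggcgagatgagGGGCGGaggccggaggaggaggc

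The *Irs2* stretch is 72.8% GC and holds an E-box beside an insulin response sequence, as well as 1 GC box. The stretch before the upstream start of *Akt1* is 52% GC with 1 FOXO site, and that before the downstream start is 78.4% GC with 4 GC boxes, some of them overlapping. The *Tbc1d4* stretch is 54.8% GC with 1 GC box. Among all 32851 RefSeq windows, which run on 50 bases past the start, 3.65% hold the FOXO site, 6.28% the insulin response sequence, 7.15% the E-box and 35.7% the GC box. The *Irs1* window of this kind is 71.3% GC and holds 2 insulin response sequences, 1 E-box and 2 GC boxes. *Irs1* did not separate the genotypes, so these motifs are not particular to *Irs2*. A match to these letters is a description only.

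The other genes of the insulin pathway were looked at through 62 symbols in 4 lists, of which 60 were in the table and 52 were tested. Of these 52 genes, 0 were called by limma at an adjusted p under 0.05, while 10 were higher and 8 lower at an unadjusted p under 0.05, where 15.3% and 10.9% of all tested genes were. With array weights 9 were called higher and 5 lower, against 15.1% and 10.4% of all tested genes. The median log2 fold change of the 52 genes was 0.11. After correction for GC content it was -0.010, with 3 genes higher and 6 lower at an unadjusted p under 0.05, against 5.33% and 5.4% of all genes. The counts of the single lists, as deposited, stand beside the same 15.3% higher and 10.9% lower. Among adaptors and scaffolds, 0 of 10 tested genes were higher and 2 were lower at that p. Among the other PI3K, PDK1 and mTORC2 genes, 2 of 10 were higher and 3 lower. Among negative regulators, 2 of 11 were higher and 1 lower, and among AKT substrates and GLUT4 traffic genes, 6 of 21 were higher and 2 lower.

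The largest positive differences without overlap were in *Pik3r2*, *Inppl1* and *Gys1*. *Pik3r2*, which encodes the p85β regulatory subunit of PI3K, was at 2.38 ± 0.426 FPKM for WT against 4.40 ± 0.488 FPKM for KO muscle (SD, n = 3 for each), and the log2 fold change was 0.87 (adjusted p = 0.0688). *Inppl1*, which encodes the lipid phosphatase SHIP2, had a log2 fold change of 0.62 (adjusted p = 0.0667), and the muscle glycogen synthase gene *Gys1* one of 0.61 (adjusted p = 0.0667). After correction for GC content these were 0.21, 0.13 and 0.28. The largest negative differences without overlap were -0.48 in *Rheb*, the small GTPase that activates mTORC1, -0.46 in *Pik3r3*, another PI3K regulatory subunit, and -0.46 in *Rictor*, a core subunit of mTORC2, with adjusted p = 0.103, 0.125 and 0.164. They were -0.36, -0.29 and -0.13 after the correction. The GLUT4 gene *Slc2a4*, named after its values were seen because TBC1D4 acts on GLUT4 vesicles, was at 173 FPKM in WT and 235 FPKM in KO muscle, and its log2 fold change was 0.45 (adjusted p = 0.109) and 0.078 after the correction. *Eif4ebp1*, a repressor of translation, was also named after its values were seen, as the gene with the lowest p of these lists. Its log2 fold change was 0.60 both as deposited (adjusted p = 0.0667) and after the correction. Of the 18 genes at an unadjusted p under 0.05, *Mapkap1*, an mTORC2 subunit, also moved away from 0 with the correction, from -0.28 to -0.34. *Akt1s1*, which encodes the AKT substrate PRAS40, went from 0.39 to -0.34, and the glycogen synthase kinase gene *Gsk3a* from 0.32 to -0.26. Some genes not at that p as deposited also moved away from 0. Among them, *Pik3cd*, a PI3K catalytic subunit, went from -0.25 to -0.71, *Foxo4* from 0.07 to -0.35 and *Inpp4b* from 0.39 to 0.68. These were named after their values were seen.

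**Figure D5:**
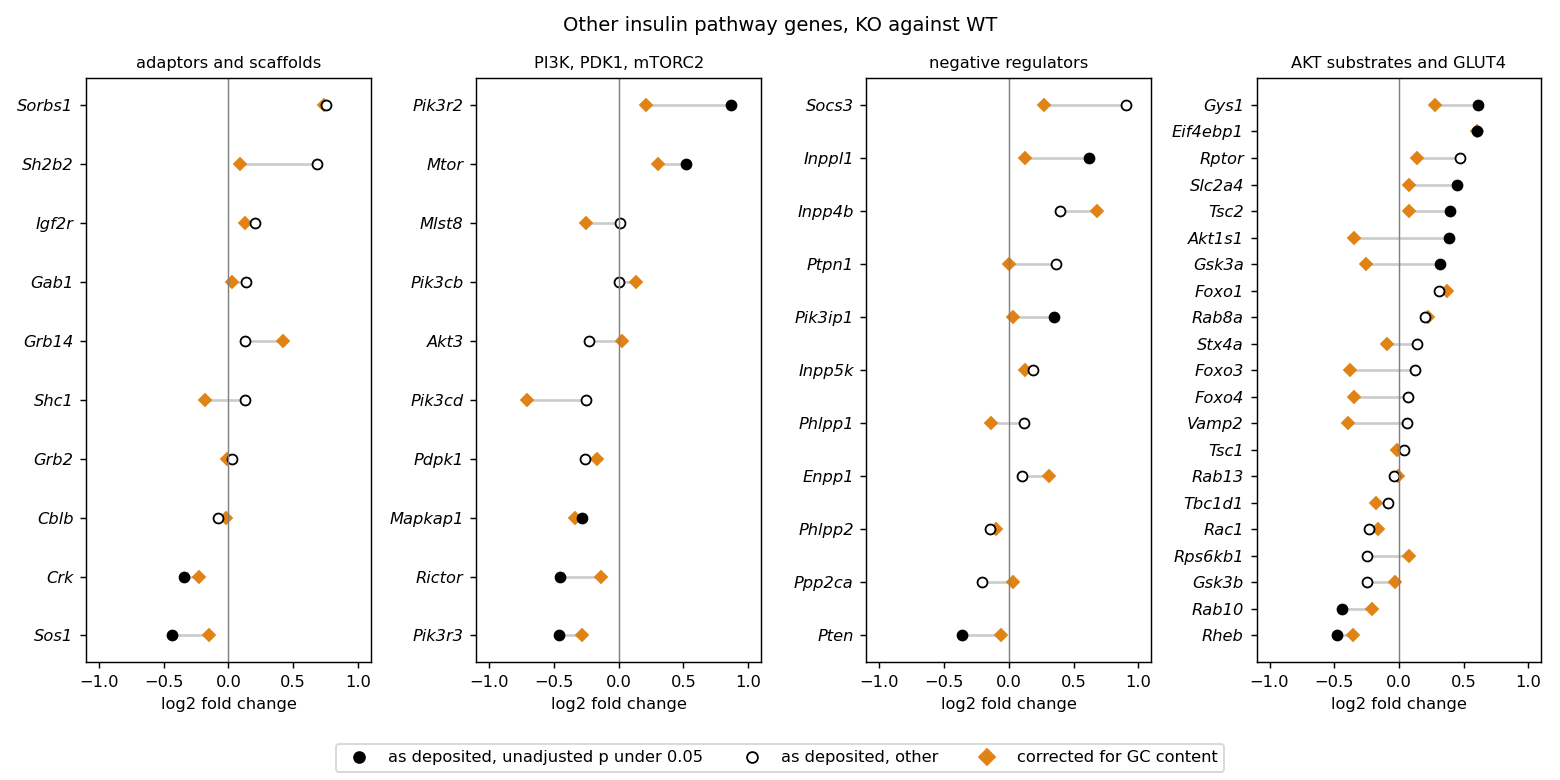
Log2 fold change of KO against WT (horizontal axes) of the 52 other tested insulin pathway genes in 4 lists, as deposited (black circles, filled at an unadjusted p under 0.05) and after correction for GC content (orange diamonds). Most filled circles lie nearer 0 after the correction, *Eif4ebp1* and *Mapkap1* do not, and *Akt1s1* (0.39 to -0.34) and *Gsk3a* (0.32 to -0.26) change sign.

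Of 8 ligand and binding protein genes, all tested, 0 were called by limma, and 3 were higher and 0 lower at an unadjusted p under 0.05, which in this and the next lists stands beside 15.3% and 10.9% of all tested genes. The growth factor gene *Igf1*, named after its values were seen like the next 3 genes, overlapped between the genotypes as deposited (log2 fold change 0.20, adjusted p = 0.521). After correction for GC content its log2 fold change was 0.47 (limma, unadjusted p = 0.0495). Of 12 FOXO and fasting transcripts, 0 were called, 3 were higher and 1 was lower at that p, with a median log2 fold change of 0.15. Some of these are also in the pathway lists above. Of the 9 that are not, 1 was higher and 1 lower at that p, with a median of -0.028. The atrophy ligases *Fbxo32* and *Trim63* and the fasting kinase gene *Pdk4*, all known FOXO targets, overlapped between the genotypes, with log2 fold changes of -0.12, 0.24 and -0.31. Other transcripts of the list did not overlap, among them *Klf15* (1.07, limma, adjusted p = 0.0758) and *Gadd45a* (-0.36, adjusted p = 0.104). After correction for GC content these were 0.75 and -0.84. Both were named after their values were seen. Of 6 transcripts that insulin is known to raise, 0 were called, 3 were higher and 0 lower at that p, and the median log2 fold change was 0.68 as deposited and 0.16 after correction for GC content. The GLUT4 gene *Slc2a4*, also in a pathway list, is counted here again. In this list the lipogenic gene *Fasn*, named after its values were seen, measured 0.560, 0.651 and 1.87 FPKM in WT mice 1, 7 and 8. KO mice 1, 7 and 8 measured 3.22, 14.4 and 2.86 FPKM (log2 fold change 2.40, adjusted p = 0.0962, and 1.86 after correction for GC content). KO mouse 7 was also the highest for the adipocyte markers below, and whether these go together was not tested. *Hk2*, also named after its values were seen, had the only negative log2 fold change of this list, -0.20.

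Markers of other cells moved with the genotype in part. All 8 adipocyte markers had positive log2 fold changes, with a median of 1.83, and 5 of them an unadjusted p under 0.05, while 0 were listed at 0. Their summed level lay between 234.5 and 444 FPKM across WT mice and between 305 and 627 FPKM across KO mice, so the sums overlapped. *Fabp4*, with 409 FPKM in WT mouse 1 and 258 FPKM in KO mouse 1, made up most of these sums. Singly, 4 of the 8 markers (*Plin1*, *Cfd*, *Cidec* and *Retn*) were higher in every KO mouse than in any WT mouse, against 18.3% of all tested genes. After correction for GC content this held for 2 of the 8, against 8.14%, and the median log2 fold change was 1.62. At an adjusted p under 0.05, limma called 0 of the 8 as deposited. KO mouse 7 had the highest level of all 8. WT replicate 1 had the highest sum of the WT libraries, though its *Retn* was the lowest of all libraries and its *Plin1* was below that of WT replicate 8. It was also the lowest WT library for *Insr*, *Igf1r*, *Irs1*, *Irs2*, *Grb10*, *Pik3ca*, *Akt1* and *Akt2*, but not for *Pik3r1* and *Tbc1d4*. Whether this goes with the sums was not tested. The 7 endothelial markers summed to 45.7 to 50.4 FPKM in WT and 45.8 to 60.6 FPKM in KO muscle, with 1 higher and 1 lower at an unadjusted p under 0.05. The summed skeletal muscle markers were at 30170 to 43630 FPKM in WT and 46730 to 50680 FPKM in KO muscle, without overlap. These sums are not shares of a common total. All genes together summed to 382780 to 432353 FPKM in the WT libraries and 431414 to 477356 FPKM in the KO libraries. Whether the marker sums follow these totals was not tested. Of the 10 muscle markers tested, 4 were higher and 0 lower at an unadjusted p under 0.05, and 2 were higher after correction for GC content, with the median log2 fold change at 0.73 and then 0.39. Of the other lists, the fibroblast markers had 1 of 6 genes at that p, the leukocyte markers 0 of 4 tested, the Schwann cell markers 0 of 4 tested and the blood markers 1 of 2, the hemoglobin gene *Hba-a1*. The 10 genes are used by many cell types besides muscle fibres, and the part of the cell types in the values of the 10 genes was not tested.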

How the data were processed

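RNA from GAS muscle of 3 Kvβ2 KO and 3 WT mice was made into poly(A) libraries with a stranded kit and sequenced in pairs. Reads were aligned by the authors to GRCm38 with TopHat, and the deposited FPKM values come from Cufflinks. Versions, the annotation and the use of strand are not given in the sources used here. FPKM are not counts, so no count model was used. Fragment totals were estimated from the spacing of low FPKM values, of which 90.1% to 94.3% lay within 0.15 fragments of a whole one. Depth is thus approximate.

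FPKM + 0.1 were taken to log2, genes averaging 0.5 FPKM or more were kept (12334 of 37979), and KO was compared with WT by limma 3.58.1 in R 4.3.3 with a variance trend and Benjamini-Hochberg adjustment. The pseudocount makes fold changes of low genes too small. GC content and exon length came from GENCODE gene models on GRCm38 and were known for 97.2% of tested genes. The correction subtracts a loess curve (span 0.3) of each library's deviation against GC content. Ratios of genes were compared by exact permutation tests. On simulated data for KO against WT (12092 genes, 200 of them changed), 91.5% of changes were recovered with 13 false calls. The planted changes were larger than the log2 fold change of any gene of the set, so this share does not apply to them. With a GC trend added there were 5482 false calls, and 13 after the correction. The added trend was the same in every library of a genotype and unrelated to which genes were changed. The trends of the real libraries differed within a genotype.

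The 10 genes and all lists were chosen with earlier results of these data known. All 10 genes are named. Of the pathway lists, the 3 largest positive and the 3 largest negative differences without overlap are named, and other genes are said to be named after their values were seen. Alternatives were other pseudocounts, filters, scalings and variance models, corrections for GC content and length, a replicate block and leaving out each library. Scale factors by the trimmed mean of M-values were computed by a function written for this work. The replicate numbers were not taken to pair the mice.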

Additional observations from a re-analysis of the deposited data

How the results depend on the processing

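As deposited, 31 genes were called higher and 9 lower in KO muscle at an adjusted p under 0.05. The number called higher was 7 (and 4 lower) with a pseudocount of 1 FPKM, 9 with no filter, 16 with libraries scaled to equal medians, 12 with no variance trend, 10 with a length correction, 6 with the GC correction, and 1 (with 0 lower) without genes listed at 0 in a library. Array weights called 1863 higher and 1284 lower, among them 3 and 3 of the 10 genes and 9 and 5 pathway genes, and gave -0.28 for *Irs1*. The cause of these shifts was not tested. With the GC correction, 1 of the 10 genes was lower at an unadjusted p under 0.05, 1 lay below without overlap, 3 pathway genes were higher at that p, and *Pik3ca* (0.025), *Akt2* (-0.17) and the log2 ratio of *Pik3ca* to *Pik3r1* (0.12) changed sign. Same-numbered mice did not deviate together (correlations of -0.025, -0.080 and 0.034 for the numbers 1, 7 and 8), and 2 of 6 libraries correlated best with their own number. A replicate block gave 6 genes called higher at an adjusted p under 0.05, and 5 pathway genes lower at an unadjusted p under 0.05. With the block and the GC correction 5 genes were called higher at an adjusted p, while at an unadjusted p 1 of the 10 genes was lower and 2 pathway genes were higher, and 1 of the 10 lay below without overlap, with *Pik3ca* at 0.025, *Akt2* at -0.17 and the ratio at 0.12. Leaving out each library gave 6 to 19 genes called higher and 5 to 19 lower (5 without KO replicate 1, 19 of each without WT replicate 8), 2 to 3 of the 10 genes higher and 0 to 3 lower at an unadjusted p under 0.05 (0 without WT replicate 7, 1 without KO replicate 1 or WT replicate 8), and 6 to 12 pathway genes higher and 2 to 8 lower at that p. *Irs1* ran from -0.27 to 0.38 and *Akt2* from -0.038 to 0.27, where *Irs1* became -0.11 without KO replicate 1 and -0.27 without WT replicate 1, *Akt2* became -0.038 without WT replicate 1, and the *Pik3ca* to *Pik3r1* ratio ran from -0.17 to 0.071 (0.0070 without KO replicate 1, 0.071 without KO replicate 7 and 0.033 without WT replicate 8). The GC correction without WT replicate 1, chosen after seeing the data, gave 5 genes called higher at an adjusted p, among them 0 of the 10 genes and 0 pathway genes. At an unadjusted p, 1 of the 10 genes was higher and 2 lower, and 2 pathway genes were higher and 4 lower, with *Irs1* at -0.26, *Akt2* at -0.30 and the ratio at 0.033. The shares of all tested genes at that p are not given here for fits with a replicate block or a library left out. Counts from these fits are therefore not read as a result about the 10 genes or the pathway genes. *Insr*, *Igf1r*, *Irs2*, *Grb10*, *Pik3r1*, *Akt1* and *Tbc1d4* kept their direction under the alternatives run, which for *Igf1r* leave out the filter at 1 FPKM that removed it. With 3 mice of each genotype, the exact test cannot go below 0.1.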
